A study of Mus musculus with 6 samples.

Results

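The background that control IgG beads carried in an AGO2 immunoprecipitation experiment was measured against the RNA that went into it, in mouse bone marrow-derived macrophages. An RNA immunoprecipitation (RIP) pulls RNA down with an antibody on beads, and beads with a non-specific IgG show which RNA comes along without the target protein. The comparison used the 2 IgG-RIP arrays and the 2 input arrays of the 6 arrays in the series, paired by genotype. The AGO2-RIP arrays, 1 per genotype, were the other fraction.

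The macrophages labelled Dicer KO came from LysM-Cre/Dicer flox/flox/Apoe-/- mice and those labelled Dicer WT from LysM-Cre/Dicer wt/wt/Apoe-/- mice, so that both genotypes carried the Cre transgene and lacked Apoe. LysM-Cre is active in cells of the myeloid lineage, and Dicer is the enzyme that cuts miRNA precursors. The groups were IgG-RIP from Dicer KO cells, IgG-RIP from Dicer WT cells, input from Dicer KO cells and input from Dicer WT cells, with 1 array each. Per the labels the mice were males of 6 to 8 weeks, and marrow cells were grown for 7 days in medium with L929-conditioned supernatant. Detergent lysates were spun at 16000 g, the cleared extract gave the input RNA, and protein A/G beads with IgG stayed in the same extract for 7 hours. After cDNA synthesis and whole-transcriptome amplification, 500 ng of each cDNA was digested by the enzymes Alu I and Rsa I, and random primers then put Cy3 into the fragments. Equal cDNA mass hides how much RNA the beads held, so every difference is one of relative abundance within an array. The labels do not state whether the labelled cDNA kept the strand of the RNA.

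Each signal is the log2 processed intensity after the 75th percentile of its array was subtracted, called the scaled signal, and a difference is IgG-RIP minus input on that log2 scale. Of 55631 probes of 60 bases, 16513 were well above background on all 4 arrays, and they represented 8742 named genes. A gene stands for its brightest measured probe, the one with the highest mean scaled signal over the 4 arrays. Bead signal thus entered the choice, which favours probes that are high on the beads. With 1 array per group, a difference within 1 genotype has no replicate check, and the limma fit over both genotypes takes its error from how far the KO and WT differences disagree. Nothing in the labels says which samples shared a cell preparation, and genotype, slide row and, by the transcripts below, sex of the mouse cannot be told apart.

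The share of spots well above background was 42.2% and 42.3% on the KO and WT IgG-RIP arrays, against 41.0% and 37.6% on the KO and WT inputs, and no spot was saturated. Dicer1, the targeted gene, had a scaled signal of -2.24 in KO IgG-RIP, where it was not well above background, and 0.18 in WT IgG-RIP, against -0.55 in KO input and 0.22 in WT input. The labels do not say which part was deleted, so whether this probe lies in it could not be checked. Xist, the RNA of the inactive X chromosome of females, read 5.70 on the WT IgG-RIP array and 0.14 on the WT input with its brightest probe, and was not well above background on either KO array. Ddx3y, a Y-linked gene, read 0.51 in KO IgG-RIP and 0.95 in KO input and was not well above background on either WT array. The sex-linked transcripts therefore go against the label male for the WT libraries. Of 30 macrophage identity genes, 28 and 25 were detected on the KO and WT IgG-RIP arrays and 29 and 27 on the KO and WT inputs.

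As background, a cleared detergent lysate is mostly cytoplasm, in which spliced mRNA sits on ribosomes, while some long non-coding RNAs, ribosomal RNA precursors and unspliced transcripts are known as nuclear RNA. Ribosomal RNA is cut from a long precursor, and its spacers are removed in the nucleolus. Malat1 and Neat1 are long non-coding RNAs of nuclear speckles and paraspeckles. LINE-1 elements and intracisternal A-particles are retroelements present in many genomic copies, and their transcripts are rare in most differentiated cells.

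Sequences from repeated or non-coding DNA follow, chosen by type and not by size alone. Some coding genes differed by more than some of them, such as Plppr3 at 4.81 against 4.65 for the LINE-1 clone. Those below are held on the beads except the 18S rRNA probe, which was lower there. The first come from a stretch of chromosome 17 (mm9, the array's build) that also holds the 18S rRNA probe, the next from the NEAT2 locus (the array's name for Malat1), and the last are a LINE-1 open reading frame 1 clone and 4.5S RNA. The capitals in 4.5S RNA mark GGCAGAGG, the letters counted over all probes further below.
Reverse-strand locus, chr17:39980799-39980858: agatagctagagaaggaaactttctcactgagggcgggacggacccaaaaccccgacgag
Reverse-strand locus, chr17:39980645-39980704: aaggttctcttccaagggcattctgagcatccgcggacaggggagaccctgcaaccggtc
Reverse-strand locus, chr17:39980565-39980624: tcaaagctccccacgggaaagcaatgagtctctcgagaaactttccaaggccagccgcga
Forward-strand locus, chr17:39982865-39982924: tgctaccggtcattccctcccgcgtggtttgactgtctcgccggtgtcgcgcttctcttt
18S rRNA, chr17:39985058-39985117: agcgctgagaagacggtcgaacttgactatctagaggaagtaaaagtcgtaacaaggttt
NEAT2 on the reverse strand, chr19:5795713-5795772: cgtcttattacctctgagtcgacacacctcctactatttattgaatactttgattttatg
NEAT2 on the reverse strand, chr19:5795773-5795832: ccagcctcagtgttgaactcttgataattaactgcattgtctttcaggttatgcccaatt
LINE-1 clone, chr16:66756513-66756572: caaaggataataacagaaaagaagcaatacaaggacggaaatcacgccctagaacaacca
4.5S RNA: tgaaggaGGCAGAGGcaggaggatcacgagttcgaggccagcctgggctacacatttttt

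Across all measured probes, the IgG-RIP arrays held a different mixture from the inputs, and the 2 genotypes gave much the same difference. By limma with Benjamini-Hochberg adjustment over all 16513 probes, 2106 probes were higher in IgG-RIP, 12.8% of those tested, and 4825 were lower, 29.2%. Of the genes, 885 were higher, 10.1%, and 2397 were lower, 27.4%. At least 2-fold differences in the same direction in both genotypes, called held and lost here, were found for 806 genes held, 9.22%, and 1980 genes lost, 22.6%. Over probes these counts were 1870 held, 11.3%, and 4127 lost, 25%. With each genotype taken by itself, 2512 probes (15.2%) were 2-fold higher and 5279 (32%) 2-fold lower in KO, and 2955 (17.9%) and 6381 (38.6%) in WT. For genes these counts were 1140 (13%) and 2646 (30.3%) in KO, and 1279 (14.6%) and 3387 (38.7%) in WT. Of the probes 2-fold higher in KO 74.4% were held in both genotypes, and of those in WT 63.3%.

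The KO and WT differences correlated across probes with Pearson's r = 0.79 and Spearman's rho = 0.77 (n = 16513 probes, which share the 4 arrays and are not independent). Their standard deviation was 1.29 in KO and 1.56 in WT. The scaled signals of the KO and WT IgG-RIP arrays correlated with r = 0.92 and those of the inputs with r = 0.99, while IgG-RIP and input correlated with r = 0.84 in KO and 0.78 in WT. The 2 bead samples resembled each other more than either resembled its own input. The median difference of all probes was -0.41 in KO and -0.54 in WT, and its size depended on scaling and filter. With each array centred on the median of the measured probes it was -0.13 and -0.15, and with quantile normalization -0.18 and -0.24. Of called probes 46.2% and 46.8% were then higher, against 30.4% under the 75th percentile. Without the filter on dim probes the median was 0.27 in KO and -0.089 in WT. Medians of gene lists are therefore given beside the median over all genes, which was -0.42 in KO, -0.61 in WT and -0.53 for the mean of both.

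**Figure D1:**
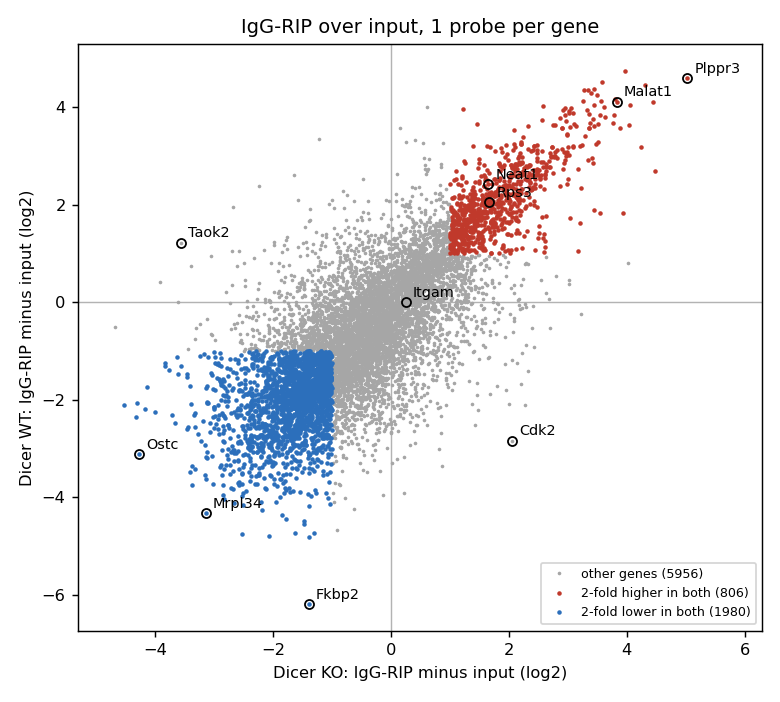
Difference of IgG-RIP minus input (log2) in Dicer KO (horizontal axis) and Dicer WT (vertical axis), 1 point per gene (8742 genes). Red points are the 806 genes at least 2-fold higher in both genotypes and blue points the 1980 genes at least 2-fold lower in both. Circles mark named genes, among them Plppr3 at 5.03 in KO and 4.60 in WT, and Fkbp2 at -1.40 in KO and -6.20 in WT.

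The largest differences of all measured probes lay beside 18S rRNA. In a stretch of chromosome 17 reaching 4761 bases to one side and 571 bases to the other of the 18S rRNA probe, the array held 23 probes, all from unnamed transcripts or lincRNA loci (long intergenic non-coding RNA) except 18S itself. Of the 20 that were well above background on all 4 arrays, 14 passed the test, 13 higher and 18S lower. These loci were singled out after their values were seen. The probe at chr17:39980645-39980704 read 7.73 and 7.99 in KO and WT IgG-RIP, against 1.51 and 2.24 in KO and WT input. Its difference was 6.22 in KO and 5.75 in WT (adjusted p = 0.00339). The forward-strand probe at chr17:39982865-39982924 read 3.95 and 4.75 in KO and WT IgG-RIP, against -1.67 and -1.10 in the inputs, a mean difference of 5.74 (adjusted p = 0.00339). In both cases the bead arrays lay far above the inputs without overlap.

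On the other side of the 18S probe, at a distance of 349 bases, a lincRNA probe read 2.89 and 3.50 in KO and WT IgG-RIP and was not well above background on either input, a difference of at least 41.9-fold. The probes 498 and 511 bases away had mean differences of 3.70 and 3.67 (adjusted p = 0.00489 for both).

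The 18S rRNA probe itself went the other way. It read 4.98 and 4.62 in KO and WT IgG-RIP, against 5.81 and 6.41 in KO and WT input, a difference of -0.83 in KO and -1.80 in WT (mean -1.31, SE 0.41, adjusted p = 0.0395). Mature 18S rRNA is the RNA of the small ribosomal subunit. Another probe in the stretch, 1840 bases away, read 6.80 and 6.92 in IgG-RIP of KO and WT, against 7.07 and 6.87 in the inputs, a mean difference of -0.11 (adjusted p = 0.824). An Ensembl transcript probe that overlaps it, 1837 bases away, differed by 1.18 (adjusted p = 0.0416), so that overlapping probes did not give one value. On the beads with the AGO2 antibody, the probe at chr17:39980645-39980704 read 7.36 in KO AGO2-RIP and 6.43 in WT AGO2-RIP.

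**Figure D2:**
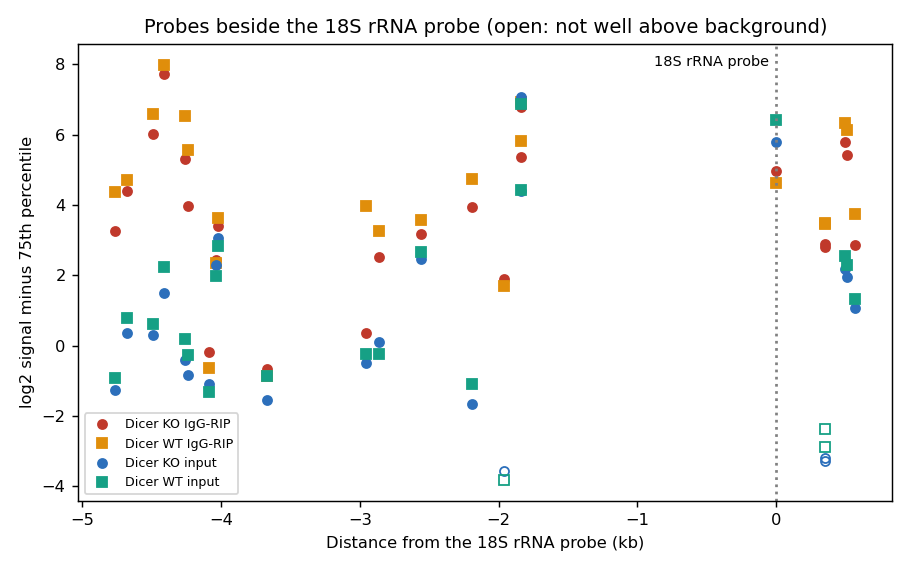
Scaled log2 signal of the 23 probes around the 18S rRNA probe on the KO and WT IgG-RIP arrays (red circles, orange squares) and the KO and WT inputs (blue circles, green squares), by distance from the 18S probe in kb. Filled symbols are well above background. The bead arrays stand far above the inputs at several probes, by 6.22 in KO and 5.75 in WT at the one 4413 bases from 18S, while the 18S probe at 0 is lower on the bead arrays, at 4.98 and 4.62 against 5.81 and 6.41.

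Retroelement transcripts were held as well. The array has 6 probes whose descriptions name a LINE-1 clone or an intracisternal A-particle or gag-related RNA, and all had higher signals on the bead array in both genotypes. They were singled out after their values were seen. The LINE-1 clone printed above read 7.29 and 7.54 in KO and WT IgG-RIP, against 2.91 and 2.62 in KO and WT input (mean difference 4.65, adjusted p = 0.00489). A clone of an RNA for a gag-related peptide read 2.82 and 3.50 in KO and WT IgG-RIP, against -0.81 and -0.91 in the inputs (mean difference 4.02, adjusted p = 0.00489). An intracisternal A-particle element that encodes integrase read 4.06 and 3.99 in IgG-RIP of KO and WT, against 1.43 and 1.55 in the inputs (mean difference 2.53, adjusted p = 0.00619). An intracisternal A-particle-related element was well above background on both bead arrays and neither input, with a difference of at least 13.2-fold. Each of these probes can bind transcripts of many genomic copies, so no single locus can be named from them.

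Named non-coding RNAs split into held and lost ones. Malat1 read 1.90 and 2.37 in KO and WT IgG-RIP, against -1.93 and -1.74 in KO and WT input, a difference of 3.83 in KO and 4.11 in WT (mean 3.97, SE 0.37, adjusted p = 0.00489). The 2 NEAT2 probes of the same locus printed above had mean differences of 3.39 and 3.80. Neat1 read 4.37 on both bead arrays, against 2.71 and 1.96 in KO and WT input (mean difference 2.03, adjusted p = 0.00983), and all 5 probes of the NEAT1 lincRNA locus passed the test, with mean differences of 1.41 to 2.12. Kcnq1ot1, an antisense RNA of an imprinted region, had 3 probes of its lincRNA locus above background on all 4 arrays, with mean differences of 0.72 to 2.56, and 2 passed the test. Airn, the antisense RNA of the imprinted Igf2r region, read 3.39 and 3.26 in KO and WT IgG-RIP, against 0.98 and 0.56 in the inputs (mean difference 2.56, adjusted p = 0.00618). Another Airn probe was above background on both bead arrays and neither input, a difference of at least 21.4-fold. 4.5S RNA read 9.11 and 9.29 in KO and WT IgG-RIP, against 7.87 and 7.94 in KO and WT input (mean difference 1.30, adjusted p = 0.029).

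TUG1, another long non-coding RNA, was not held: its 5 lincRNA probes had mean differences of -1.34 to -0.85 and 1 passed the test. Rmrp, the RNA of an RNA-processing complex, read 1.16 and 1.99 in KO and WT IgG-RIP, against 1.41 and 1.77 in the inputs, with groups that overlapped (mean difference -0.01, adjusted p = 0.983). The snoRNA host genes Snhg3 and Snhg6 were lower, with mean differences of -1.39 and -1.51 (adjusted p = 0.0277 and 0.0384). Of the list of nuclear and small non-coding RNAs, 12 of 24 on the array were measured, 2 were higher and 3 lower. Its median was -0.29 in KO and -0.34 in WT, and its sign relative to all genes depended on the setting.

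Non-coding transcripts lay higher than coding ones beyond these names, by an amount that depended on the setting. The median of intergenic lincRNA probes minus that of protein-coding probes was 0.84, but 0.55 with normexp background correction and 0.106 without the filter on dim probes. The 185 measured genes of RefSeq biotype lncRNA had a median difference of 0.95 in KO and 1.01 in WT, and 85 of them were higher (45.9%) and 10 lower. The 3053 measured probes to intergenic lincRNA loci had a median of 0.15 in KO and 0.28 in WT, with 655 higher (21.5%) and 572 lower (18.7%). Protein-coding genes had medians of -0.43 and -0.63 in KO and WT, with 777 of 8374 higher and 2289 lower. The 162 genes of a pseudogene biotype lay lowest, at -1.20 in KO and -1.64 in WT, and 98 of them were lower. A pseudogene probe can share letters with its parent mRNA, so signal from the 2 could not be told apart.

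Probes to the forward and the reverse strand of the same lincRNA locus moved alike. For 318 loci measured on both strands, the locus medians of the strands correlated with Spearman's rho = 0.57 over loci, which share arrays and genomic position. The forward probes were at least 2-fold higher in 82 loci and the reverse probes in 98, and both were in 45. In 8 loci the strands went opposite ways by at least 2-fold. Their median difference was 0.31 on the forward and 0.47 on the reverse strand.

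Among protein-coding genes the difference followed the span of the gene, the distance from first to last exon in RefSeq's GRCm38.p6 table. The 1675 genes of shortest span, 204 to 7260 bases, had a median of -0.81 in KO and -1.15 in WT, with 43.8% of genes lower. The 1675 genes of longest span, above 60039 bases, had a median of -0.14 in KO and -0.21 in WT, with 13.8% lower. The share of genes higher was 8.78% among the shortest, 8.36% to 9.26% in the groups between and 11.3% among the longest. The genes were also parted into 3 equal bands by input signal. In the brightest band, the shorter and longer spans had medians of -1.37 and -0.72 for the mean of both genotypes, and in the middle band -0.93 and -0.55. In the dimmest band the medians were 0.16 and 0.15. Measured probes had to be well above background on the bead arrays, so genes in this band could not be much lower there. The band therefore cannot show whether loss followed span.

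Among measured probes, the difference fell with the signal in the input. Among the 3303 probes dimmest on the WT input array, the KO difference had a median of 0.63, and among the 3303 brightest it was -1.18. With the KO input as the yardstick and the WT difference, the medians were 0.75 and -1.65. The yardstick and the difference used different arrays here, although the inputs correlated with r = 0.99. Measured probes also had to be well above background on the bead arrays, so a probe dim in the input could not be much lower there. Of the 3303 dimmest on the WT input array, 1020 were higher by the limma test and 22 lower. How much of the fall came from this filter was not tested. Probes of 60% GC or more had medians of 0.34 in KO and 0.52 in WT, against -0.50 and -0.78 for probes of 35 to 40% GC. Of the GC-rich probes 17.7% were higher and 4.21% lower, against 9.14% and 29.5% at 35 to 40% GC. The share higher was largest at 30 to 35% GC, at 20.3% of 143 probes. Over all probes GC and difference correlated only weakly (Spearman's rho = 0.0925 in KO and 0.15 in WT).

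**Figure D3:**
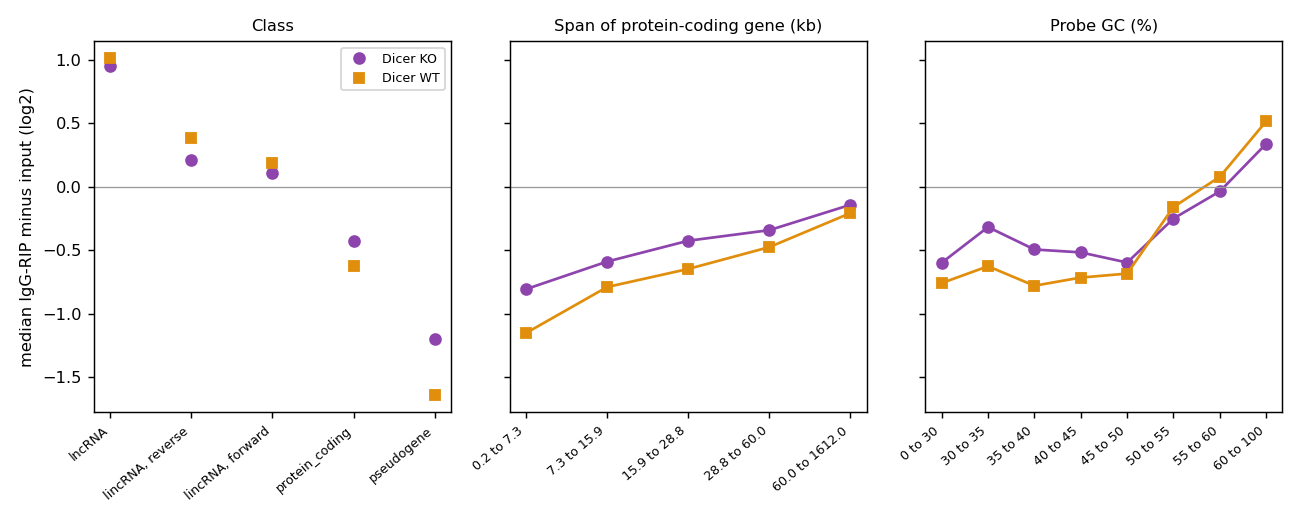
Median difference of IgG-RIP minus input (log2) in Dicer KO (circles) and Dicer WT (squares) by transcript class, by span of protein-coding genes in 5 equal groups and by probe GC content. Genes of biotype lncRNA lie highest, at 0.95 in KO and 1.01 in WT, and genes of a pseudogene biotype lowest, at -1.20 in KO and -1.64 in WT.

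Some short repeats were more frequent among higher than among lower probes. A run of 5 GT units on either strand was in 3.04% of the probes that were higher, 0.104% of those that were lower, 1.41% of all measured and 0.439% of all probes on the array. Its 233 measured probes had a median difference of 0.65 in KO and 0.70 in WT. CTCTCTCT on either strand was in 2.33% of higher and 0.456% of lower probes, against 0.751% of measured and 0.550% of all probes. GGCAGAGG, the letters in capitals in the 4.5S RNA probe, was on either strand in 1.90% of higher and 0.207% of lower probes, against 0.575% of measured and 0.270% of all probes. The motifs were searched as exact letters, chosen after the held probes were seen. AGCT and GTAC, the recognition letters of Alu I and Rsa I, were in 23.2% and 10.4% of higher probes and 22.8% and 11.3% of lower probes, against 24.8% and 12.9% of all probes.

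The gene lists with the lowest medians encoded parts of the ribosome and of the respiratory chain. List counts here and below stand beside 10.1% higher and 27.4% lower over all genes. Of 78 measured cytosolic ribosomal protein genes, 76 were lower and 1 higher, and 72 were lost in both genotypes. Their median was -1.63 in KO and -2.54 in WT, against -0.42 and -0.61 over all genes. Rpl28 read 3.37 and 2.75 in KO and WT IgG-RIP, against 6.22 and 6.71 in KO and WT input (mean difference -3.41, SE 0.42, adjusted p = 0.00555). Rps2, of the small subunit, read 3.34 and 2.97 in KO and WT IgG-RIP, against 6.18 and 6.73 in the inputs (mean difference -3.30, adjusted p = 0.00542). Neither gene's bead and input values overlapped, but both were named as the lowest members of the list.

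Of 77 measured nuclear-encoded subunits of the respiratory chain and ATP synthase, 69 were lower and 1 higher, with a median of -1.64 in KO and -2.27 in WT. Ndufa6, of complex I, had a mean difference of -3.34, and Cox6b1, of cytochrome c oxidase, one of -3.16 (adjusted p = 0.00618 and 0.00528). Uqcrc2, a core subunit of complex III, did not pass, at -0.77 (adjusted p = 0.128). Of 66 measured mitochondrial ribosomal protein genes, 48 were lower and 1 higher, with a median of -1.53 in KO and -2.23 in WT. Mrpl34 read 0.58 and -0.15 in KO and WT IgG-RIP, against 3.72 and 4.19 in the inputs (mean difference -3.74, adjusted p = 0.00528). In all 3 lists the median stayed below that of all genes under every scaling, filter and background setting tried, with a gap of -1.04 at its narrowest.

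Several other housekeeping lists also had medians below that of all genes, but bright input signal alone went with lower differences. The 3303 probes brightest on the WT input array had a median mean difference of -1.46, with 62.1% lower. For the 3302 next brightest these were -1.04 and 42.8%. The proteasome list (-1.45) and the glycolysis and citric acid cycle list (-1.04) lay near these values. The 3 lists above lay lower, at -2.10, -1.96 and -1.83. No list was matched to probes of equal input signal. Of 36 proteasome subunits, 24 were lower and none higher (median -1.25 in KO and -1.75 in WT), among them Psma6, an alpha subunit, at -2.46. Psmb7, a catalytic beta subunit, read 3.40 and 1.63 in KO and WT IgG-RIP, against 5.66 and 5.36 in KO and WT input (adjusted p = 0.00663). Of 44 genes of the ER translocon and chaperones, 25 were lower and none higher (median -1.15 in KO and -1.34 in WT). Ostc, of the oligosaccharyltransferase, read -0.91 and 0.35 in KO and WT IgG-RIP, against 3.37 and 3.47 in KO and WT input (mean difference -3.70, adjusted p = 0.00528). Sec11c, of the signal peptidase, differed by -3.37 on average (adjusted p = 0.00528). Hyou1, an ER chaperone, differed by -0.02 (adjusted p = 0.977).

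Of 48 translation factors, 22 were lower and none higher, with Eef1b2, of elongation factor 1, at -3.12 and Eif3f at -2.95 (adjusted p = 0.00601 and 0.00593), while Eif4a2, a helicase, stood at 0.93 (adjusted p = 0.0819). Of 33 replication-dependent histone genes, whose mRNAs end in a stem-loop in place of a poly(A) tail, 22 were lower and 3 higher (median -1.06 in KO and -1.51 in WT). H2bc4 differed by -3.38 and H2bc21 by 2.06 (adjusted p = 0.00521 and 0.00817). Histone genes are near-identical in sequence, so their probes can share signal. Of 53 splicing factors, 19 were lower (35.8%, against 27.4% of all genes) and 2 higher. Snrpd2, a core snRNP protein, stood at -2.59 and Prpf38b at 1.48 (adjusted p = 0.00618 and 0.0191). Of 27 hnRNP genes, 9 were lower (33.3%, against the same 27.4%) and none higher. Their median of -0.33 lay above the -0.53 of all genes and changed sign with the scaling.

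Of 37 glycolysis and citric acid cycle genes, 17 were lower and none higher (median -0.96 in KO and -1.20 in WT). Of 27 lysosomal proteases and proton pump subunits, 12 were lower and none higher by their brightest probe (median -0.87 in KO and -1.31 in WT). Atp6v0a1, of the proton pump, had its brightest probe at -0.24 and another at 4.13 (adjusted p = 0.646 and 0.00618). Interferon-stimulated genes had 8 of 16 lower and 1 higher (50% and 6.25%, against 27.4% and 10.1% of all genes). Zbp1, a sensor of nucleic acids, was the higher one, at 2.51 (adjusted p = 0.00648), and Ifitm3 stood lowest, at -2.39.

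**Figure D4:**
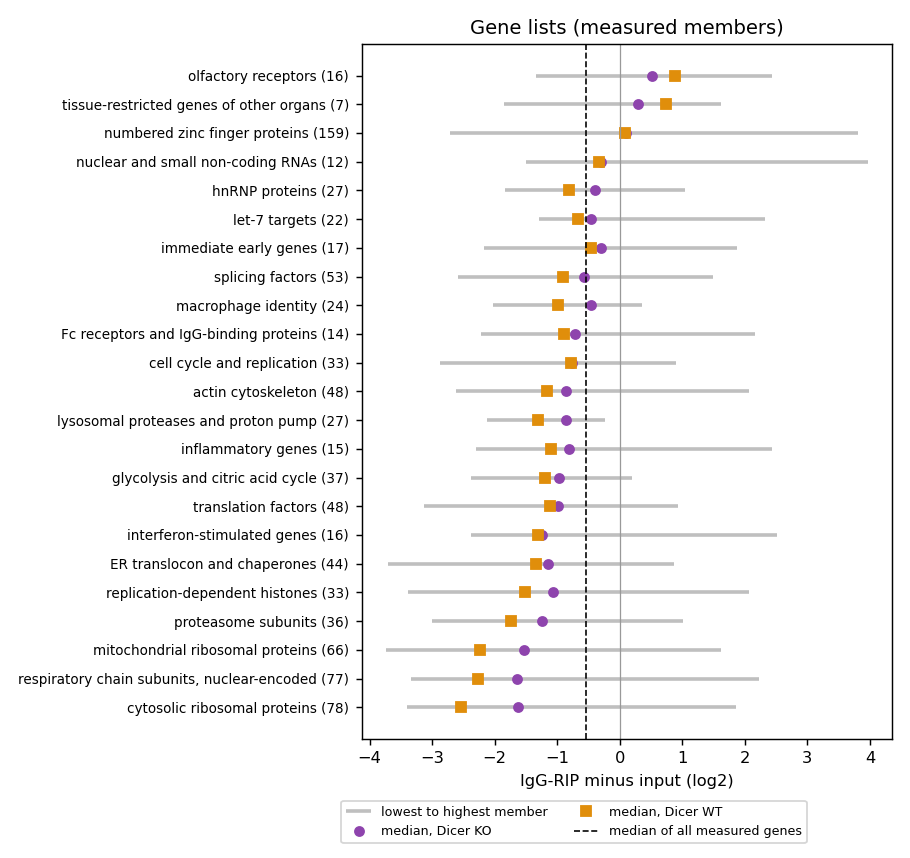
Gene lists by median difference of IgG-RIP minus input (log2) in Dicer KO (circles) and Dicer WT (squares), with the lowest to highest member as a grey bar and the number of measured members in brackets. The dashed line is the median of all 8742 genes at -0.53. Cytosolic ribosomal proteins lie lowest at -1.63 in KO and -2.54 in WT, and the zinc finger, tissue-restricted and olfactory receptor lists lie above 0 in both genotypes.

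Of 24 measured macrophage identity genes, 6 were lower and none higher, with medians of -0.46 in KO and -0.99 in WT. The 25% that were lower stand beside 27.4% of all genes, and the list median relative to all genes was -0.19, or 0.053 after quantile normalization. Itgam (CD11b) read 9.84 and 9.81 in KO and WT IgG-RIP, against 9.59 and 9.82 in KO and WT input (mean difference 0.12, adjusted p = 0.803), and Cx3cr1, a chemokine receptor, differed by 0.36 (adjusted p = 0.456). Tyrobp, an adaptor of activating receptors, read 7.22 and 6.82 in KO and WT IgG-RIP, against 8.82 and 9.30 in the inputs (mean difference -2.03, adjusted p = 0.0104). Aif1, a calcium-binding protein of macrophages, differed by -1.87 (adjusted p = 0.0123).

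Since the beads carried IgG, the mRNAs for proteins that bind IgG or signal from Fc receptors were listed. Of 14 measured, 3 were higher and 5 lower (21.4% and 35.7%, against 10.1% and 27.4% of all genes). C1qa, of the first complement component, differed by -2.23 and Fcgr2b, the inhibitory Fc gamma receptor, by -2.02 (adjusted p = 0.00993 and 0.0086). Fcer2a, the low-affinity IgE receptor, differed by 2.16 and Lyn, a Src-family kinase, by 1.32 (adjusted p = 0.00836 and 0.0313). The list held members on both sides.

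Numbered zinc finger genes and olfactory receptors had medians above 0 in both genotypes, 0.04 and 0.58 for the mean of both. Both lists were dim in the WT input, with median signals of 0.73 and -0.26, and the filter limits how low dim probes can go. All probes of -0.25 to 0.97 on that array had a median mean difference of -0.11, and dimmer ones 0.71. Whether the lists differ from other probes of equal input signal was not tested. The array had 376 numbered zinc finger genes, mostly of DNA-binding proteins, and 159 were measured, with a median of 0.10 in KO and 0.08 in WT. Of these 24 were higher (15.1%) and 8 lower (5.03%), against 10.1% and 27.4% of all genes. Zfp975 read 3.19 and 3.47 in KO and WT IgG-RIP, against -0.41 and -0.53 in the inputs (mean difference 3.80, adjusted p = 0.00489). Zfp446 differed by 3.31, while Zfp706 differed by -2.72 and Zfp36, an mRNA-decay factor caught by its symbol, by -1.81. Of 1075 olfactory receptor genes, 77 were detected on the KO and 77 on the WT IgG-RIP array, against 29 on the KO and 27 on the WT input. Only 16 were measured on all 4 arrays, of which 2 were higher and 1 lower, and 36 (3.35%) had a probe above background on both bead arrays and neither input, close to the 3.64% of all 22376 genes. The reverse was found for 1 olfactory receptor (0.093%), against 3.62% of all genes.

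Few markers of other blood cells were measured on all 4 arrays, and their part in the other results was not tested. Over all genes 10.1% were higher and 27.4% lower, and lists this small cannot be told from those shares. Of 15 B and plasma cell markers, 2 were measured, Cr2 and Cd22, which differed by 2.41 and 1.56 (adjusted p = 0.00659 and 0.0168). Of 20 T and NK cell markers, 4 were measured and 2 were higher, Cd4 at 1.72 and Prf1 at 1.67 (adjusted p = 0.0143 and 0.0189). Another measured Cd4 probe differed by 0.08 (adjusted p = 0.885). Of 17 neutrophil markers, 3 were measured and 2 were higher, among them Csf3r, the G-CSF receptor, which read 8.47 and 8.78 in KO and WT IgG-RIP, against 6.84 and 6.92 in the inputs (mean difference 1.74, adjusted p = 0.0122). On the KO IgG-RIP, WT IgG-RIP, KO input and WT input arrays, 4, 4, 3 and 2 B and plasma cell markers and 8, 9, 8 and 4 T and NK cell markers were detected. Mmp8, a neutrophil collagenase, stood at -0.94 (adjusted p = 0.267). Of 15 dendritic cell markers, 4 were measured, none was higher and 1 was lower, Cd74, the invariant chain of MHC class II, at -1.57 (adjusted p = 0.0164). Of 18 erythroid and megakaryocyte markers, 3 were measured, none was higher and 1 was lower, Pf4, a platelet chemokine, at -2.07 (adjusted p = 0.00941). None of the 13 mast cell and basophil markers was measured.

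The 12 genes held most strongly ranged from a mean difference of 3.85 for Prss37, a serine protease-like gene of the testis, to 4.81 for Plppr3, a phospholipid phosphatase-related gene of the brain. Plppr3 read 4.19 and 3.41 in KO and WT IgG-RIP, against -0.83 and -1.19 in KO and WT input (SE 0.37, adjusted p = 0.00466). Pcdh15, a protocadherin of hair cells, read 3.46 and 3.63 in KO and WT IgG-RIP, against -0.98 and -0.47 in the inputs (mean difference 4.27, adjusted p = 0.00489). Plxna2, a semaphorin receptor, read 6.16 and 6.24 in IgG-RIP of KO and WT, against 2.10 and 2.20 in the inputs (mean difference 4.05), but the array places this probe on chromosome 14 and RefSeq the gene on chromosome 1. Sap25, a Sin3-associated protein, differed by 3.99. Malat1 was in this set, with the lncRNA genes 5930403N24Rik at 4.38 and A630089N07Rik at 3.87, the pseudogenes Gm17821 at 4.36 and Morf4l1-ps1 at 3.85, and the coding genes D830030K20Rik at 4.05 and D430041D05Rik at 3.90. In these 12 genes every bead value lay above both inputs, which their choice by size made likely.

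The 12 genes lost most strongly had mean differences of -3.80 to -3.38, and all were protein-coding. The first 30 of 60 bases of 4 of their probes follow, to show which mRNAs were read; the files give no strand for them, and the Fkbp2 range is longer than its probe.
Fkbp2, chr19:7053122-7053483: gtcttacacatgcactacacgggaaagcta
Mrpl34, chr8:73989526-73989585: tttctgtgaatatatttgaaggcatctttg
Ostc, chr3:130406339-130406398: gtccagctttctctttacaatgggaggttt
Hras, chr7:148377296-148377355: tgccttctatacactagtccgtgagattcg

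Fkbp2, an ER prolyl isomerase, read 4.03 and -0.73 in KO and WT IgG-RIP, against 5.42 and 5.47 in KO and WT input, so that its rank rested on the WT array (mean difference -3.80, SE 0.98, adjusted p = 0.0222). Hras, a small GTPase, read 0.44 and -1.10 in KO and WT IgG-RIP, against 2.96 and 3.66 in the inputs (mean difference -3.64, adjusted p = 0.00665). Commd1, a regulator of copper and of endosomal sorting, differed by -3.57, and Psmg4, a proteasome assembly chaperone, by -3.44. Slc25a1, the mitochondrial citrate carrier, and Exosc6, an exosome subunit, differed by -3.44 and -3.43. Ormdl1, a regulator of sphingolipid synthesis, differed by -3.39 and Lix1l by -3.38. Mrpl34, Ostc, Rpl28 and H2bc4, given above, completed the set.

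Many transcripts were well above background on the IgG beads and not in the input, or the reverse. On both bead arrays and neither input, 2337 probes were well above background (4.20% of 55631), of which 46.1% were intergenic lincRNA probes and 30.1% protein-coding, against 29.2% and 51.9% of all probes. The reverse, both inputs and neither bead array, held for 1114 probes, of which 17.1% were lincRNA and 72.5% protein-coding. Of the 2337 probes 1626 were past 2-fold, and of the 1114 probes 594, so crossing the background cutoff did not by itself give a 2-fold difference. For such probes a fold is a lower bound. On each dim array the bound takes the lowest signal of any probe well above background, or the signal of the probe itself if that was larger. Of the genes with no probe above background on an input, Slc7a15, an amino acid transporter-like gene, read 2.08 and 2.19 in KO and WT IgG-RIP, a difference of at least 4.32 on the log2 scale. Psg28, a pregnancy-specific glycoprotein, read 1.90 and 2.24, at least 19.1-fold higher. C030005K06Rik and 4930469K13Rik were at least 19.7-fold and 17.4-fold higher. Oaz3, an antizyme of the testis, was at least 18.8-fold higher. Muc5b, a mucin of the airways, read -0.75 in KO and 7.91 in WT IgG-RIP, so that its bound of 54.4-fold rested on the WT array.

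Of the genes with no probe above background on a bead array, Gng10, a G-protein gamma subunit, read 1.51 and 2.17 in KO and WT input, and its bead signal was at least 15.2-fold lower. Mblac1 was at least 14.7-fold lower. Map1lc3a, of the autophagosome, and Ddit3, a stress-induced transcription factor, were at least 10.9-fold lower each. Pigk, of the GPI transamidase, was at least 10.2-fold lower, and AW209491 was at least 3.42 lower on the log2 scale.

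Probes of one gene did not always move together. A second measured probe was available for 142 of the 806 held genes. It was itself held in 25 of them (17.6%), against 5.19% of second probes over all 1983 genes that had one, and it was below 0 in 70. Over all 1983 genes the second probe was above 0 in 26.8%. Of 524 lost genes with a second probe, 309 had it lost as well (59.0%), against 29.3% over all such genes, and it was above 0 in 52. The median of the first probe was 1.75 in held and -1.78 in lost genes, and that of the second 0.06 and -1.55, against -0.65 and -0.78 over all 1983 genes. The position of these probes within their transcripts was not analysed here.

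**Figure D5:**
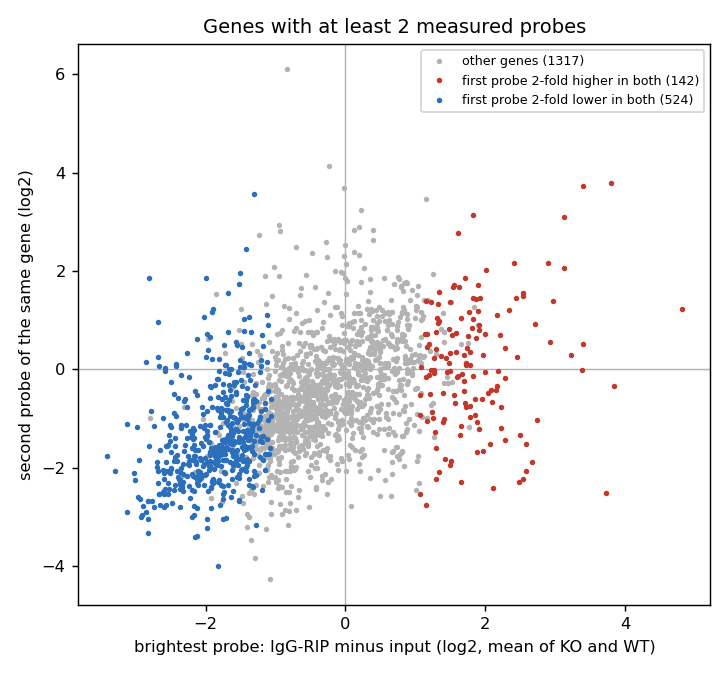
Mean difference of IgG-RIP minus input (log2) of the second probe of a gene (vertical axis) against that of its brightest probe (horizontal axis), for the 1983 genes with at least 2 measured probes. Second probes of the 142 held genes (red) scatter around a median of 0.06, whereas those of the 524 lost genes (blue) centre on -1.55. The brightest probe was chosen with the bead arrays included.

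Single genes showed this split. Rps3 was the 1 ribosomal protein gene called higher: its brightest probe read 6.88 and 7.34 in KO and WT IgG-RIP, against 5.22 and 5.29 in KO and WT input (mean difference 1.86, adjusted p = 0.0107), while its other probes differed by -0.62 and -0.56. Atp5g1, a subunit of ATP synthase and the 1 respiratory chain gene called higher, had one probe at 2.23 and another at -1.20 (adjusted p = 0.00707 and 0.0389). Tpm1, an actin-binding tropomyosin, had 3 measured probes at 2.07, -1.52 and -2.47, all past the test. Itgam had probes at 0.12, 0.98 and 1.97, of which the last passed. Which other probes to show was chosen after their values were seen.

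Gas5, a snoRNA host RNA, was split along its locus on chromosome 1. A probe at chr1:162966369-162966428 read 2.97 and 3.59 in KO and WT IgG-RIP, against 0.58 and 0.54 in KO and WT input (mean difference 2.72, adjusted p = 0.00617). The next, at chr1:162967350-162967409, was above background on both bead arrays and neither input, at least 20.4-fold higher. The last, at chr1:162968608-162968667, read 2.18 and 2.82 in KO and WT IgG-RIP, against 3.01 and 4.47 in the inputs (mean difference -1.24, adjusted p = 0.0431). Not all probes split in this way: Zfp975 had 4 of 5 measured probes between 3.24 and 4.18, with the other at 0.09, and the 3 Snrpd2 probes lay between -2.59 and -2.30.

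The genotypes differed in single genes, and with 1 array per group this difference of differences has no test. Cdk2, a cell-cycle kinase, read 3.13 in KO and -1.49 in WT IgG-RIP, against 1.08 and 1.35 in KO and WT input, a difference of 2.05 in KO and -2.85 in WT. Kcna3, a potassium channel, gave 2.27 in KO and -2.11 in WT. Taok2, a kinase, read -0.77 in KO and 3.53 in WT IgG-RIP, against 2.79 and 2.31 in the inputs, and Mvp, the major vault protein, read -1.64 and 2.11 on the beads, against 1.04 and 0.17. Over all genes 34 were at least 2-fold higher in KO and 2-fold lower in WT, and 36 the reverse, of 8742. The SD of the KO minus WT difference over genes was 0.97.

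For Ago2, Apoe and Lcor, genes that the study's design touches, the mean difference did not pass the test. Ago2, whose protein the other antibody binds, had 3 measured probes with mean differences of 1.02, -0.69 and -0.91 (adjusted p = 0.0953, 0.19 and 0.152). Within a genotype they ranged from -1.68 in KO to 1.62 in WT. Apoe, inactivated in all mice, read 1.20 and 0.56 in KO and WT IgG-RIP, against -0.01 and 0.17 in KO and WT input (mean difference 0.80, adjusted p = 0.142). Lcor, a nuclear receptor corepressor, read 1.99 and -0.29 in KO and WT IgG-RIP, against 2.82 and 0.42 in the inputs, differences of -0.83 in KO and -0.72 in WT (adjusted p = 0.126). Its KO values were the higher ones on the beads and in the input alike.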

How the data were processed

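Per the labels and the file headers, each RNA was hybridised in 1 colour (Cy3) to an Agilent mouse lincRNA array designed on mm9, and the deposited files hold processed intensity values from Agilent Feature Extraction 10.7.3.1, which the submitters' processing notes name. Only spots of ControlType 0 were used, 50 of 55681 probes with outlier spots were left out, and spots of one probe were averaged. The intensity values as deposited were turned into log2 values minus each array's 75th percentile. Probes well above background on all 4 arrays entered a limma fit with genotype as a block and fraction as the factor, with Benjamini-Hochberg adjustment over 16513 probes. It has 1 residual degree of freedom before moderation.

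Names came from RefSeq's table by accession for 27720 probes, by symbol for 3341 and by synonym for 311, while 16232 were lincRNA loci and 8027 kept the array's name. Named were the 12 highest and 12 lowest genes passing both criteria, the 2 highest and 2 lowest members of each described list, the 5 highest and lowest KO minus WT differences, the 6 brightest genes dim on the other fraction, and Dicer1, Ago2, Apoe and Lcor. The members, lists and rules were chosen with earlier results of these data known, and gene span was taken in place of protein length after the files were seen. Tested on simulated data of 16513 probes for IgG-RIP over input, the fit recovered 0% of 2-fold, 70% of 4-fold, 98% of 8-fold and 100% of 16-fold changes, and called 29 unchanged probes. The simulation changed far fewer probes than were called in the data, which makes its adjusted cutoff stricter. Its shares recovered therefore do not carry over: in the data a mean difference of 1.18 passed (limma, adjusted p = 0.0416). Alternatives were other background correction, scaling, filters, gene summaries and fits, and each genotype alone. Python 3.11.15, pandas 2.3.3, numpy 2.4.6, scipy 1.17.1, matplotlib 3.10.9, R 4.3.3 and limma 3.58.1 were used. One gene and one probe sequence that these rules select are not reported here. The precision is limited by 1 array per group.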

Additional observations from a re-analysis of the deposited data

Results flagged for a closer look

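Some genes went opposite ways on the beads of the 2 genotypes by at least 2-fold each, and with 1 array per group none of these differences was tested. There were 34 genes higher in KO and lower in WT, and 36 lower in KO and higher in WT. Of the genes with the largest KO minus WT difference of IgG-RIP over input (log2), Cdk2 stood at 4.90 and Kcna3 at 4.38, both past 2-fold in each genotype. A230045G11Rik stood at 4.22 and Slc32a1 at 4.14, with opposite signs but KO differences of only 0.87 and 0.23. Slc32a1 read -0.16 and 0.92 in KO and WT IgG-RIP, against -0.39 and 4.83 in KO and WT input, so that its value rested on the WT input array, and its other probe differed by 1.53 on average. In the other direction stood Taok2 at -4.78, Mvp at -4.63, Sema4b at -4.61 and Ddit4 at -4.32, of which Ddit4 was under 2-fold in WT, at 0.41.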

How the results depend on the processing

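Of the 24 named held and lost genes, all kept their direction under the alternatives computed for single genes. Where these had a test, all kept their call but Fkbp2, at -3.18 after quantile normalization (limma, adjusted p = 0.0895). Plppr3 stood at 3.02 as the median of its probes, which has no test. Counts over all probes depended on scaling and filter. With normexp background, 1086 probes and 477 genes were held, and the median difference of all probes was -0.31 in KO and -0.35 in WT. With median centring, 3260 probes were higher and 1253 genes lost, with medians of -0.13 in KO and -0.15 in WT. With quantile normalization, 2164 probes were lower, 2508 probes and 1191 genes lost, with medians of -0.18 and -0.24. Without the filter on dim probes, 5469 probes were higher, 6401 held and 6248 lost, 1996 genes held and 2998 lost, with medians of 0.27 in KO and -0.089 in WT. With either genotype left out, held probes numbered 2512 to 2955, lost probes 5279 to 6381, held genes 1140 to 1279 and lost genes 2646 to 3387, since 1 genotype then has to pass. Relative to all genes, the median of nuclear and small non-coding RNAs was 0.39 and turned to -0.048 after quantile normalization and -0.21 without the filter, where that of zinc finger genes turned from 0.58 to -0.013; the cause was not tested. Dim probes set only bounds.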
